A study of Homo sapiens with 48 samples.

Results

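TXNIP, the 4 arrestin-domain genes ARRDC1, ARRDC2, ARRDC3 and ARRDC4, and the glucose-sensing transcription factor genes MLXIP and MLX were followed in HEK293 cells with an AT1 receptor. They are 7 of the 60610 genes listed in the count table, and all 7 passed the filter on low counts that left 19626 genes for testing. The set was chosen by the level of TXNIP, whose mRNA was lower with EGF than in control at 6 h, and the other 6 genes were added as its relatives and regulators. The values of TXNIP in the control 6 h and EGF 6 h libraries are therefore a description with no test, and so is each comparison of TXNIP that contains them. The other 6 genes were also chosen with earlier results of these data known, so counts over the set and p-values of its genes are descriptive.

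TXNIP binds thioredoxin, the small protein that reduces oxidised cysteines, and it also promotes the internalisation of the glucose transporter GLUT1. It belongs to the alpha-arrestins, a family with arrestin folds that brings ubiquitin ligases of the NEDD4 family to membrane proteins, and the ARRDC genes encode its closest relatives. MLXIP, also called MondoA, pairs with MLX, moves to the nucleus when glucose phosphates rise and switches on TXNIP and ARRDC4, which makes the mRNA of both genes a known readout of glucose uptake and use.

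HEK293 is a line from human embryonic kidney, and these cells carried a stably introduced AT1R, the type 1 receptor for angiotensin II (AII), after selection with puromycin in the presence of the receptor blocker losartan and limiting dilution cloning. According to the study's text the transcriptome was measured in a single clone, B6, and the labels do not name a clone for each library. The cells were kept in DMEM without serum and received no stimulus (control), 1 nM AII, 10 µg/L EGF, or 1 nM AII with 10 µg/L EGF (AII + EGF), for 6 h or 24 h, so every group shares the line, the receptor and the serum-free medium. Poly(A) RNA was sequenced in 48 libraries, 6 for each of 8 groups, and 38 of these were used here, namely 4 control, 5 AII, 3 EGF and 4 AII + EGF libraries at 6 h and 6, 5, 5 and 6 at 24 h. Libraries are named by group and by order of deposition, and nothing says that those of 1 group came from separate cultures, so p-values measure the spread between libraries only.

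The 10 libraries left out were near-identical to another library or had a profile that went against their label. Of 1128 pairs of libraries, 4 pairs were closer than independent sampling of reads gives (chi-square per degree of freedom 0.397 to 0.505; the next pair had 2.02), and 3 of these 4 pairs joined libraries with different labels. Among them, control 6 h replicate 1 was near-identical to EGF 24 h replicate 2, control 6 h replicate 2 to AII 24 h replicate 4, and EGF 6 h replicate 2 to replicate 6 of its own group. The remaining pair joined replicate 1 of EGF 6 h with replicate 4 of AII + EGF 6 h. Next in closeness came AII 6 h replicates 1 and 2 (2.02), EGF 6 h replicates 3 and 4 (3.32) and AII + EGF 24 h replicates 1 and 2 (3.96). Each of these pairs lay within 1 group and was kept, and whether its libraries came from separate cultures is not stated. The other 2 left out were AII 6 h replicate 6 and AII + EGF 6 h replicate 6. They were placed on a scale where the mean of the kept AII 6 h libraries is 0 and that of the kept AII + EGF 6 h libraries is 1. The scale used the 1492 genes called between these kept groups by the test given below, TXNIP, ARRDC3 and ARRDC4 among them. On it the 2 libraries lay at 0.858 and −0.0065, in that order. The kept libraries lay at −0.048 to 0.028 (AII) and 0.980 to 1.02 (AII + EGF), so 0.858 was outside both ranges. The 38 kept libraries held 17783804 to 29956472 counts. Titles ran through the 4 treatments in 8 consecutive stretches, each at 1 time, called title runs here; the labels do not call them a batch. All 9 HEK293 marker genes on a fixed list had counts, with NEFM, a neurofilament gene, at 2453 to 9353 CPM (a count scaled to the size of its library) and PAX2 at only 0.264 to 3.66 CPM. The summed level of 8 markers of blood, endothelial, liver and heart cells was 0.227 to 1.36 CPM in all groups.

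The known glucose response of TXNIP and ARRDC4 runs through short promoter elements with the letters CACGTG or close variants of them, which MLX and its partners bind, and the stretches that hold such letters are shown for that reason. They come from RefSeq, build GRCh38.p14, run 5′ to 3′ toward the transcription start site, and have the matching letters in capitals. The TXNIP stretch covers 120 to 21 bases before the start site (chr1:145996600-145996699, minus strand), the ARRDC4 stretch 250 to 151 bases (chr15:97960453-97960552, plus strand) and the MLX stretch 100 bases to 1 base (chr17:42567000-42567099, plus strand).
TXNIP: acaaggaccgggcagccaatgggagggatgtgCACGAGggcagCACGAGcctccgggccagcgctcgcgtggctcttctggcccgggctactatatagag
ARRDC4: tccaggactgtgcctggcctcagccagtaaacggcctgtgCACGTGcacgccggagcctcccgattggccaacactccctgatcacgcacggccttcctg
MLX: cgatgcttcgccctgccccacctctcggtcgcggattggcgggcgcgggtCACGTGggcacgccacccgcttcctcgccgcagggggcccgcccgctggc
TXNIP held the pattern CACGNG, 5 bases, CACGNG once, starting 88 bases before the start site, and 0.057% of 35114 promoter windows of 300 bases held it on either strand. This pattern was written after the sequences had been seen, so its rarity supports nothing. ARRDC4 and MLX each held CACGTG once, starting 210 and 50 bases before the start site, and 7.26% of the windows held it at least once. The looser pattern CANGNG, 5 bases, CNCNTG was in 0.564% of windows and in none of the windows of the 7 genes, and ARRDC1, ARRDC2, ARRDC3 and MLXIP held none of the 3 patterns. A match describes letters and not binding.

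TXNIP lies on chromosome 1 (145992435 to 145996579, GRCh38.p14), ARRDC1 on chromosome 9 (137605686 to 137615360), ARRDC2 on chromosome 19 (18001124 to 18014102) and ARRDC3 on chromosome 5 (91368631 to 91383317). ARRDC4 lies on chromosome 15 (97960703 to 97973833), MLXIP on chromosome 12 (122078756 to 122147344) and MLX on chromosome 17 (42567100 to 42573203). ARRDC1 overlaps ARRDC1-AS1, ARRDC3 overlaps ARRDC3-AS1 and MLX overlaps PSMC3IP. Whether the counting used strand is not stated, so the counts of these 3 genes may include reads of the neighbour.

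Per kilobase of transcript, the 7 mRNAs covered a wide range in control cells. At 6 h TXNIP had the highest level with 21.1 CPM per kb, followed by MLXIP with 17.6, MLX with 17.1, ARRDC1 with 14.01, ARRDC4 with 10.3, ARRDC2 with 8.79 and ARRDC3 with 1.49 CPM per kb. At 24 h in control TXNIP stood at 56.7 CPM per kb and ARRDC4 at 22.2 CPM per kb, above the other 5 genes, which were at 1.76 to 15.3 CPM per kb. With AII + EGF at 6 h this order was different, since ARRDC4 led with 36.6 CPM per kb and TXNIP stood at 8.07 CPM per kb.

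**Figure D1:**
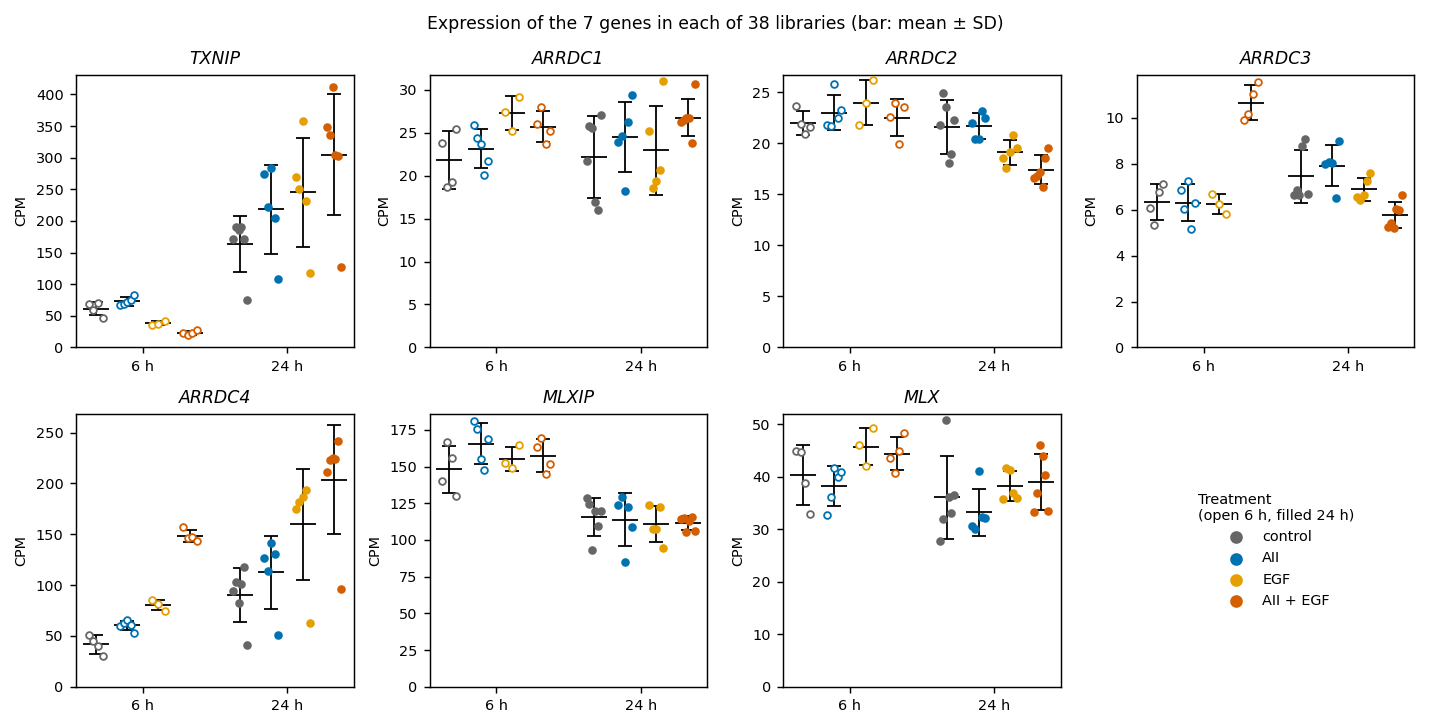
CPM of each of the 7 genes in the 38 libraries, with treatments in the order control, AII, EGF and AII + EGF at 6 h (open points) and 24 h (filled points); black bars are mean ± SD. At 6 h the TXNIP mean is 61.1 CPM in control and 23.4 CPM with AII + EGF, and that of ARRDC4 is 41.6 and 148 CPM, while at 24 h both means are highest with AII + EGF.

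TXNIP mRNA was lowest with AII + EGF at 6 h and highest with AII + EGF at 24 h. In control at 6 h its level was 68.3, 58.6, 70.3 and 47.3 CPM. With AII at 6 h it was 66.8, 67.9, 71.2, 75.4 and 83.4 CPM, so these libraries overlapped control. With EGF at 6 h, the values that chose the gene were 35.8, 37.6 and 42.4 CPM, all below every control library. With AII + EGF at 6 h it was 22.3, 20.1, 23.5 and 27.6 CPM, and these 4 libraries lay below every library of the other groups. The means at 6 h were 61.1 ± 10.5 CPM in control (SD, n = 4), 72.9 ± 6.73 CPM with AII (n = 5), 38.6 ± 3.42 CPM with EGF (n = 3) and 23.4 ± 3.14 CPM with AII + EGF (n = 4).

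At 24 h TXNIP was higher in all 4 groups than in the same group at 6 h. In control at 24 h it ranged from 75.7 to 191 CPM with a median of 179 CPM (n = 6). With AII it was 275, 222, 284, 204 and 108 CPM, and with EGF 269, 250, 359, 231 and 118 CPM. With AII + EGF it ranged from 127 to 412 CPM with a median of 320 CPM (n = 6). In each of these groups the lowest library was replicate 6, all of title run 8. Without that run the AII (204 to 284 CPM), EGF (231 to 359 CPM) and AII + EGF libraries (302 to 412 CPM) all lay above the control libraries (171 to 191 CPM). With all libraries the neighbouring groups in the order of 24 h means, namely control 164 ± 44.3 (SD, n = 6), AII 219 ± 70.4 (n = 5), EGF 245 ± 86.5 (n = 5) and AII + EGF 305 ± 96.1 CPM (n = 6), overlapped.

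The libraries left out, given here in CPM of a fit with all 48, bear on TXNIP at 6 h. Control 6 h replicates 1 and 2 had 183 and 174 CPM, close to the 184 and 175 CPM of the 24 h libraries to which they were near-identical and above each of the 4 control 6 h libraries used. EGF 6 h replicates 2 and 6, near-identical within their group, had 33.5 and 33.7 CPM, while replicate 1 of EGF 6 h and its near-identical AII + EGF library had 30.7 and 30.6 CPM. AII 6 h replicate 6 had 22.8 CPM, within the range of the kept AII + EGF 6 h libraries. AII + EGF 6 h replicate 6 had 47.8 CPM, above the kept AII + EGF 6 h libraries but below all kept AII 6 h libraries. Control 6 h replicate 6 had 47.4 CPM. With all 48 libraries the control 6 h mean of TXNIP was 100 CPM in place of 61.1 CPM and the AII + EGF 6 h mean 28.4 CPM in place of 23.4 CPM.

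Changes between groups were tested with edgeR's quasi-likelihood test over all 19626 genes. Called means here that the p adjusted by Benjamini-Hochberg was below 0.01, that the change reached 1.5-fold and that the group with the higher level had a mean over 5 CPM. Shares of all genes count every tested gene, also those too low to be called. They are therefore lower than the shares among genes over 5 CPM. With AII + EGF at 6 h, 2 of the 6 genes other than TXNIP were called, both higher, against 12% of all genes called in either direction (6.45% higher). The called genes were ARRDC4 and ARRDC3, and the median log2 change of the 6 was 0.19 beside −0.03 for all genes. Against AII at 6 h, 3 of 7 were called with AII + EGF (7.6% of all genes), ARRDC4 and ARRDC3 as higher (4.21% of all genes) and TXNIP as lower (3.39%), and against EGF 1 of 6, ARRDC3 as higher (2.92% of all genes called, 1.62% higher). For AII alone at 6 h none of the 6 was called by edgeR or by DESeq2 (0.469% of all genes by edgeR), and 0 of 6 had an unadjusted p under 0.05. For EGF alone at 6 h none was called by either tool (1.94% of all genes by edgeR), and 1 of 6, ARRDC4, had an unadjusted p under 0.05.

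At 24 h, 2 of the 7 genes were called with AII + EGF against control, TXNIP and ARRDC4, both higher (2.9% of all genes called, 1.7% higher). By edgeR no gene of the 7 was called with EGF (0.245% of all genes), where 3 had an unadjusted p under 0.05 and DESeq2 called 0. For AII + EGF against EGF 0 of 7 were called (0.0917% of all genes), with 1 at an unadjusted p under 0.05 and 0 by DESeq2. For AII + EGF against AII 0 of 7 were called (1.45% of all genes), with 4 at an unadjusted p under 0.05 and 1, ARRDC4, called by DESeq2. With AII alone at 24 h edgeR called no gene at all, with 343 genes under an unadjusted p of 0.05 and 0 called by DESeq2. The same held for the departure of AII + EGF from the sum of both single changes at 24 h, with 0 genes called by edgeR, 660 genes under an unadjusted p of 0.05 (ARRDC3 alone among the 7) and 0 called by DESeq2. In control cells, 24 h against 6 h, 1 of 6 was called, ARRDC4 as higher (6.73% of all genes called, 4.77% higher). The AII and the EGF change at 24 h differed from that at 6 h by edgeR in 0 of 6 genes each (0.138% and 1.03% of all genes), with 0 and 1 at an unadjusted p under 0.05 and 0 by DESeq2. The comparisons against 1 control group share its libraries, so their values stand side by side and are not independent of each other.

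**Figure D2:**
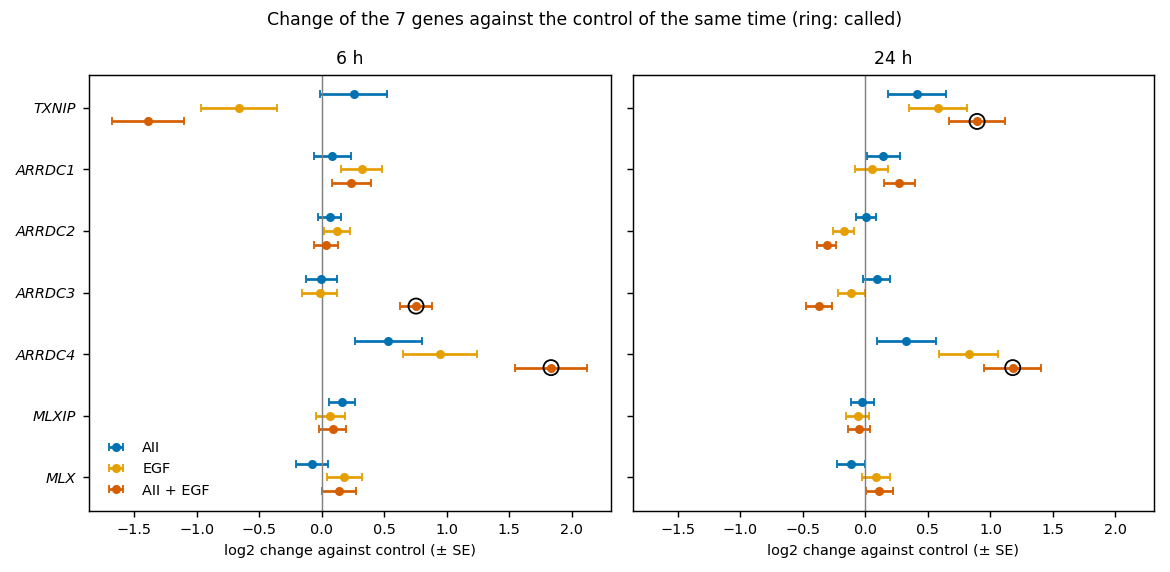
Log2 change of each gene against the control of the same time with its SE, for AII, EGF and AII + EGF at 6 h and 24 h; rings mark called changes, and TXNIP at 6 h was not tested. TXNIP is at −1.39 with AII + EGF at 6 h and at 0.89 at 24 h, whereas ARRDC4 is at 1.83 and 1.18.

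At 6 h the log2 change of TXNIP against control was 0.26 ± 0.26 with AII, −0.66 ± 0.31 with EGF and −1.39 ± 0.29 with AII + EGF (SE of the fit; no test). AII + EGF libraries had 0.383 of the control level and did not overlap the EGF libraries either, with a log2 difference of −0.72 ± 0.30. The departure from the sum of both single changes was −0.98 ± 0.40, also with no test. The test that does not use the libraries that picked TXNIP is AII + EGF against AII, where it fell by 1.64 ± 0.28 on the log2 scale (edgeR adjusted p = 1.81e-05, 9 libraries, all 4 AII + EGF libraries below all 5 AII libraries). In title runs 1, 4 and 5, which hold both groups, AII + EGF had 0.315, 0.321 and 0.331 of the AII level.

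These values depended on the libraries left out. With all 48 the change of TXNIP against control at 6 h was −0.64 with AII, −1.50 with EGF and −1.82 with AII + EGF, so the sign under AII turned, and the departure from the sum was 0.33. AII + EGF against AII was then −1.17 with an edgeR adjusted p of 0.0112, and no gene of the 7 was called in that comparison. Within title runs 4 and 5, which hold all 4 treatments at 6 h, TXNIP with EGF was at 0.579 and 0.604 of control, with AII + EGF at 0.370 and 0.392, and with AII at 1.15 and 1.19 of control.

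At 24 h TXNIP was 1.86-fold higher with AII + EGF than in control (log2 0.89 ± 0.23, edgeR adjusted p = 0.00425). The call was lost in 3 of 12 fits that each left out 1 library, namely AII + EGF replicate 1 or 3 or control replicate 6 (log2 change 0.76 to 1.05 and adjusted p 0.000234 to 0.0173 over the 12), and the adjusted p was 0.0338 with all 48 libraries. With EGF the log2 change was 0.58 ± 0.23 (adjusted p = 0.216) and with AII 0.41 ± 0.23 (adjusted p = 1), with the groups overlapping. Title run 8 set much of this spread, since its 4 libraries had 0.372 to 0.439 of the mean of the other libraries of their groups. Within each of the 4 title runs at 24 h TXNIP was higher than in control with AII (1.20 to 1.51 times), EGF (1.35 to 1.62 times) and AII + EGF (1.67 to 1.90 times). With title runs as a block the EGF change of TXNIP was 0.61 (adjusted p = 1.83e-06) and was called, and that of AII was 0.47 (adjusted p = 0.0133) and was not.

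Without a stimulus TXNIP was 2.69-fold higher at 24 h than at 6 h (log2 1.43 ± 0.26), as a description, and 0.72 on the log2 scale with all 48 libraries. The AII + EGF change was larger at 24 h than at 6 h by 2.28 ± 0.37 and the EGF change by 1.24 ± 0.39 on the log2 scale, neither tested, since both use libraries that picked the gene. For AII this difference was 0.16 ± 0.35. Time and title run cannot be told apart in these values, because no title run holds both times.

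ARRDC4, an alpha-arrestin that like TXNIP lowers glucose uptake, rose with AII + EGF at both times. In control at 6 h its level was 51.0, 45.4, 40.2 and 29.9 CPM. With AII it was 59.9, 62.2, 65.5, 60.5 and 53.3 CPM and with EGF 84.9, 81.3 and 74.6 CPM. With AII + EGF it was 157, 146, 147 and 143 CPM. The 4 groups of kept libraries at 6 h did not overlap. Their means rose in the order control 41.6 ± 8.99, AII 60.3 ± 4.49, EGF 80.3 ± 5.23 and AII + EGF 148 ± 6.09 CPM (SD, n = 4, 5, 3 and 4).

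The edgeR test called ARRDC4 with AII + EGF against control at 6 h (log2 1.83 ± 0.29, 3.57-fold, adjusted p = 2.92e-06) and against AII (log2 1.30 ± 0.26, adjusted p = 0.000218). It did not call ARRDC4 with EGF against control (log2 0.95 ± 0.30, adjusted p = 0.0486), with AII + EGF against EGF (log2 0.89 ± 0.30, adjusted p = 0.0551) or with AII (log2 0.53 ± 0.27, adjusted p = 0.428), although these groups did not overlap. The departure from the sum of the single changes was 0.35 ± 0.40, with a 95% interval from −0.43 to 1.14. With title runs as a block both EGF comparisons were called, with log2 changes of 0.82 (adjusted p = 2.63e-08) and 0.89 (adjusted p = 5.75e-09). Treatments were not balanced over title runs, since run 1 held no kept control and run 7 only a kept control, the lowest. Within title runs 4 and 5 ARRDC4 was at 3.06 and 3.56 times control with AII + EGF. The ratios were 1.72 and 1.85 with EGF and 1.31 and 1.32 with AII. With all 48 libraries the control 6 h mean was 60.6 CPM, and AII + EGF against control was 1.02 on the log2 scale (adjusted p = 0.00447) and still called. Control 6 h replicates 1 and 2, left out, had 110 and 88.0 CPM, AII 6 h replicate 6 had 79.5 and AII + EGF 6 h replicate 6 had 39.8 CPM. EGF 6 h replicates 2 and 6, also left out, had 61.8 and 61.6 CPM, within the range of the kept AII libraries. EGF 6 h replicate 1 and its near-identical AII + EGF library had 116 and 117 CPM.

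At 24 h ARRDC4 ranged from 40.97 to 118 CPM in control with a median of 97.8 CPM (n = 6). With AII it was 127, 114, 142, 131 and 51.2 CPM and with EGF 175, 182, 186, 193 and 63.0 CPM. With AII + EGF it ranged from 96.2 to 242 CPM with a median of 223 CPM (n = 6). The lowest library of each group was again replicate 6 of title run 8, and without it the EGF and AII + EGF libraries lay above all control libraries. The change against control was 1.18 ± 0.23 on the log2 scale with AII + EGF (adjusted p = 0.000263), 0.83 ± 0.24 with EGF (adjusted p = 0.0544) and 0.33 ± 0.24 with AII (adjusted p = 1).

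Within the 4 title runs at 24 h ARRDC4 with AII + EGF was at 2.04 to 2.45 times control and with EGF at 1.54 to 2.01 times, and with the runs as a block the EGF change was 0.83 (adjusted p = 1.01e-10) and was called. AII + EGF against AII was 0.85 ± 0.24 (adjusted p = 0.017; 0.00488 with DESeq2, which called it). Against EGF it was 0.35 ± 0.24 (95% interval −0.11 to 0.81), so a difference could not be shown. In control cells ARRDC4 was 2.16-fold higher at 24 h than at 6 h (log2 1.11 ± 0.26, adjusted p = 0.00135), with the groups overlapping. With all 48 libraries this change was 0.58 (adjusted p = 0.142). Here too time and title run cannot be told apart. The AII + EGF change at 24 h was smaller than at 6 h by a log2 difference of −0.66 ± 0.36 (adjusted p = 0.187), and with all 48 libraries this difference was 0.16.

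**Figure D3:**
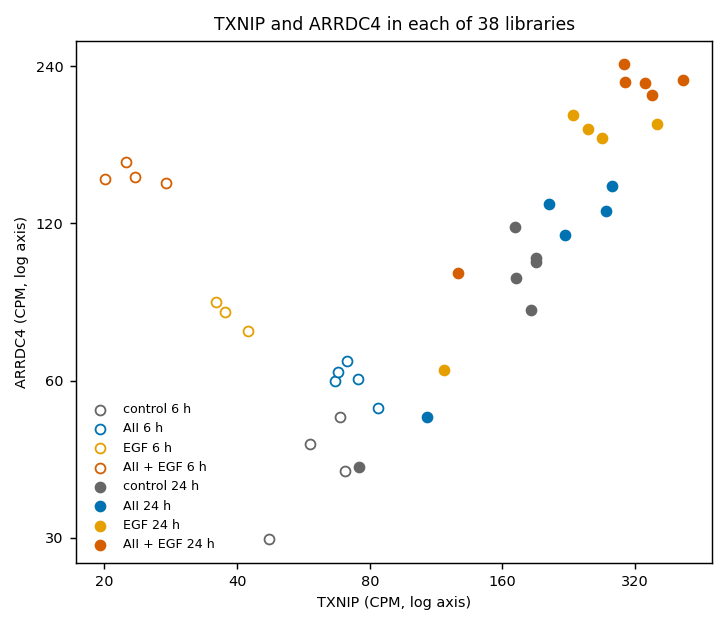
ARRDC4 against TXNIP in each of the 38 libraries, both in CPM on log axes, open points for 6 h and filled points for 24 h. At 6 h the groups run from low ARRDC4 and higher TXNIP in control and AII to high ARRDC4 and low TXNIP in AII + EGF, and at 24 h the means of both genes rise in the order control, AII, EGF and AII + EGF, with the title run 8 library lowest for both in each group.

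With AII + EGF, TXNIP was lower and ARRDC4 higher than in control at 6 h, and at 24 h both were higher. The CPM ratio of ARRDC4 to TXNIP was 0.681 ± 0.0957 in control at 6 h (SD, n = 4), 0.835 ± 0.12 with AII (n = 5), 2.097 ± 0.312 with EGF (n = 3) and 6.45 ± 0.939 with AII + EGF (n = 4). Its range with AII + EGF, 5.19 to 7.28, lay above that of EGF, 1.76 to 2.37, which lay above that of the other 2 groups, up to 0.921. The control and EGF ratios at 6 h contain the TXNIP values that chose the gene, so their separation is a description with no test. At 24 h the ratio was 0.55 ± 0.081 in control (n = 6), 0.518 ± 0.071 with AII (n = 5), 0.653 ± 0.133 with EGF (n = 5) and 0.685 ± 0.0972 with AII + EGF (n = 6), and all 4 ranges overlapped. The low values of title run 8 at 24 h were shared by both genes, and in each group its ratio lay within the range of the other libraries. Over the 38 libraries the Spearman correlation of the pair was 0.575, and with each group's mean removed it was 0.527, which describes libraries that share groups and title runs. The within-group value includes the low libraries of title run 8. Without them, the library with the lowest TXNIP had the highest ARRDC4 of its group in control, EGF and AII + EGF at 24 h.

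ARRDC3 is an alpha-arrestin known to act on the beta2-adrenergic receptor and other membrane proteins. Among the kept libraries at 6 h it differed from control with AII + EGF alone. In control at 6 h it was at 6.07, 5.33, 6.78 and 7.10 CPM. With AII it was 6.84, 6.01, 7.24, 5.15 and 6.28 CPM and with EGF 6.69, 6.26 and 5.80 CPM. With AII + EGF it was 9.91, 10.2, 11.02 and 11.6 CPM, and these 4 libraries lay above every other library of the 38. The change with AII + EGF was 0.75 ± 0.13 on the log2 scale against control (1.69-fold, edgeR adjusted p = 1.11e-05), 0.77 ± 0.14 against EGF (adjusted p = 0.00016) and 0.76 ± 0.12 against AII (adjusted p = 6.1e-06). With AII alone it was −0.0033 ± 0.12 (95% interval −0.24 to 0.24) and with EGF alone −0.02 ± 0.14 (95% interval −0.29 to 0.26).

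The departure of ARRDC3 from the sum of the single changes at 6 h was 0.77 ± 0.18 with an edgeR adjusted p of 0.0317, which was not called (no gene of 6, with ARRDC3 the 1 at an unadjusted p under 0.05; 0.229% of all genes), and DESeq2 gave 0.00553 and called it. With all 48 libraries it was 0.54 (adjusted p = 0.956), while AII + EGF against control was 0.67 (adjusted p = 9.18e-05) and still called. Against AII it was then 0.56 (adjusted p = 0.00594), under 1.5-fold and not called, and against EGF the call was lost with only the near-identical pairs left out (0.68, adjusted p = 0.0171). In title runs 4 and 5 ARRDC3 with AII + EGF was at 1.93 and 1.71 times control. Of the libraries left out, EGF 6 h replicate 1 had 9.04 CPM and the AII + EGF library near-identical to it 8.99 CPM. AII 6 h replicate 6 had 8.30 CPM, above the kept control, AII and EGF libraries at 6 h. AII + EGF 6 h replicate 6 had 7.51 CPM, below the kept AII + EGF libraries and above the kept AII ones. Control 6 h replicates 1 and 2 had 5.83 and 5.71 CPM, and EGF 6 h replicates 2 and 6 had 4.77 and 4.87 CPM.

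At 24 h ARRDC3 with AII + EGF ranged from 5.22 to 6.64 CPM with a median of 5.70 CPM, below control, which ranged from 6.65 to 9.10 CPM with a median of 6.77 CPM (n = 6 each). The ranges were adjacent without overlap, and the change of −0.37 ± 0.10 did not pass the test (adjusted p = 0.0106). Against AII at 24 h it was −0.46 ± 0.11 (adjusted p = 0.00465), which is under 1.5-fold. The AII + EGF change at 24 h differed from that at 6 h by −1.12 ± 0.17 on the log2 scale (edgeR adjusted p = 2.26e-06), and ARRDC3 was the 1 of 6 genes called there, against 11.6% of all genes in either direction and 6.08% in its direction. It was called with all 48 libraries too (−1.04, adjusted p = 7.07e-05).

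**Figure D4:**
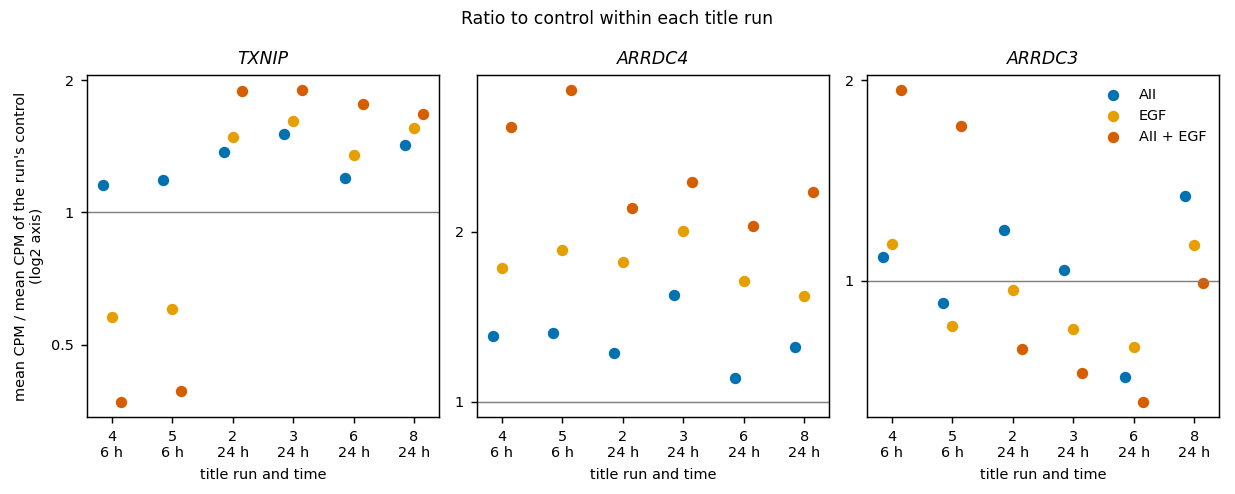
Mean CPM of each treatment divided by that of control in the same title run, on a log2 axis, for TXNIP, ARRDC4 and ARRDC3, with 2 title runs at 6 h and 4 at 24 h. TXNIP with EGF and with AII + EGF is below 1 in both 6 h runs and above 1 in all 4 24 h runs; ARRDC4 is above 1 throughout, and ARRDC3 with AII + EGF is above 1 at 6 h and below 1 at 24 h.

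ARRDC2, a less studied alpha-arrestin, was called in no comparison, and its mean was lowest with AII + EGF at 24 h. Group means at 6 h were 21.98 to 23.95 CPM. At 24 h control was at 18.04 to 24.9 CPM with a median of 22.02 CPM, and AII + EGF was at 15.7 to 19.5 CPM with a median of 16.96 CPM (n = 6 each), with overlap. The change was −0.31 ± 0.078 on the log2 scale (0.806 of control, adjusted p = 0.00399) and passed the p limit without reaching 1.5-fold. Against AII at 24 h, whose libraries lay at 20.4 to 23.1 CPM and did not overlap, it was −0.32 ± 0.082 (adjusted p = 0.00895). Within the 4 title runs ARRDC2 with AII + EGF was at 0.714 to 0.982 of control.

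ARRDC1, an alpha-arrestin known for the budding of vesicles at the plasma membrane, was called in no comparison. Its group means lay between 21.8 and 27.2 CPM, and neighbours in the order of the 8 groups overlapped throughout. The largest change against control was 0.32 ± 0.16 on the log2 scale with EGF at 6 h (adjusted p = 0.306, 95% interval −0.0013 to 0.64), followed by 0.27 ± 0.13 with AII + EGF at 24 h (adjusted p = 0.126).

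MLXIP, the glucose sensor that acts on TXNIP and ARRDC4, did not pass the test with any stimulus. At 6 h its group means were 148 to 166 CPM and at 24 h 111 to 116 CPM. The change with AII + EGF was 0.09 ± 0.11 at 6 h (adjusted p = 0.582, 95% interval −0.12 to 0.30) and −0.05 ± 0.088 at 24 h (adjusted p = 0.729, 95% interval −0.23 to 0.12). It was lower at 24 h than at 6 h in control cells, with 140, 167, 156 and 130 CPM at 6 h and 92.9 to 128 CPM with a median of 120 CPM at 24 h (n = 6), and these groups did not overlap. The change of −0.36 ± 0.098 passed the p limit (adjusted p = 0.00495) without reaching 1.5-fold, and with all 48 libraries it was −0.38 (adjusted p = 0.0145). Time and title run cannot be told apart in this change either.

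MLX, the partner of MLXIP and of the related ChREBP, was called in no comparison either. Its group means were 38.2 to 45.8 CPM at 6 h and 33.3 to 39 CPM at 24 h, with neighbours in the order overlapping. With AII + EGF its change was 0.14 ± 0.13 at 6 h (95% interval −0.12 to 0.40) and 0.11 ± 0.11 at 24 h (95% interval −0.10 to 0.32). Neither gene of the sensor pair was called in the comparisons where TXNIP or ARRDC4 was.

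Genes around the set were taken from 6 lists. These were drawn up with earlier results of these data known, so counts and p-values of their genes are descriptive. Of the 14 tested genes for glucose transporters and the first steps of glucose use (17 listed; SLC2A10, HK3 and HKDC1 were not tested), 4 rose with AII + EGF at 6 h and none fell (3 called with all 48 libraries), with a list median of 0.32 beside −0.03 for all genes. In this comparison 12% of all genes were called, 6.45% as higher, with genes too low to be called included in the total. The counts of the lists below are to be read against these shares. SLC2A1, which encodes GLUT1, rose from 61.8 ± 11.8 to 382 ± 53.6 CPM (SD, n = 4 each; log2 2.63 ± 0.19, adjusted p = 1.57e-13). SLC2A3, the gene of GLUT3, rose from 4.26 ± 1.65 to 33.5 ± 4.33 CPM (log2 2.99 ± 0.42, adjusted p = 3.57e-07), and its close copy SLC2A14 could share its reads. HK2, a hexokinase gene, rose from 57.2 ± 5.82 to 238 ± 22.7 CPM, and HK1 rose from 142 ± 26.1 to 221 ± 17.4 CPM.

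SLC2A1 and HK2 were also the 2 called genes of that list with AII (log2 1.06 ± 0.18 and 0.94 ± 0.19) and with EGF (1.58 ± 0.20 and 1.16 ± 0.21) at 6 h, against 0.469% and 1.94% of all genes called, and with all 48 libraries neither was called with AII. At 24 h no gene of the list was called with any stimulus. SLC2A1, picked for this after its values were seen, was at 55.8 CPM with AII + EGF at 24 h and at 79.5 CPM in control (log2 −0.51 ± 0.15, adjusted p = 0.0146, not called).

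Of 4 partners of MLX, 2 fell with AII + EGF at 6 h (12% of all genes called), and 2 were called with all 48 libraries. MLXIPL, which encodes the glucose-responsive factor ChREBP, fell from 16.3 ± 3.51 to 7.72 ± 2.06 CPM (log2 −1.08 ± 0.22, adjusted p = 0.000166). MXD4, a MAX-dimerising repressor gene, fell from 219 ± 12.4 to 121 ± 4.96 CPM (log2 −0.86 ± 0.11, adjusted p = 5.37e-08). None of the 4 was called with AII or EGF alone or at 24 h.

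Of 9 tested carbohydrate-response targets (10 listed; PKLR was not tested), 3 rose and 1 fell with AII + EGF at 6 h (12% of all genes called), with a list median of 0.38, and with all 48 libraries 2 of the 9 were called. ME1, malic enzyme, rose by 1.05 ± 0.12 on the log2 scale, KLF10, a Krüppel-like factor gene, by 0.92 ± 0.25 and ELOVL6, a fatty acid elongase gene, by 0.62 ± 0.11. KHK, ketohexokinase, was the gene that fell, from 9.88 ± 0.816 to 5.78 ± 1.05 CPM (log2 −0.77 ± 0.16). With EGF alone ME1 (0.92 ± 0.13) and ELOVL6 (0.61 ± 0.11) rose, with 1 gene of the list called with all 48 libraries, and with AII alone none of the 9 was called. At 24 h, where 2.9% of all genes were called with AII + EGF, KHK was the 1 called gene of all 6 lists, higher than in control (11.7 ± 2.60 to 17.7 ± 1.89 CPM, n = 6 each, log2 0.60 ± 0.12, adjusted p = 0.000417).

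Of 12 thioredoxin system genes, 2 fell and none rose with AII + EGF at 6 h, a share near the 12% of all genes called, and the list median was 0.01. With all 48 libraries 1 was called. TXN2, mitochondrial thioredoxin, fell from 68.6 ± 8.07 to 40.6 ± 1.83 CPM (log2 −0.76 ± 0.15), and TXNRD2, mitochondrial thioredoxin reductase, from 54.6 ± 6.18 to 32.7 ± 4.52 CPM (log2 −0.74 ± 0.13).

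Of 9 genes of NEDD4-family ubiquitin ligases, 2 rose and 1 fell with AII + EGF at 6 h (12% of all genes called), with a list median of 0.40, and with all 48 libraries 2 were called. NEDD4 rose from 22.6 ± 1.28 to 53.6 ± 3.56 CPM (log2 1.25 ± 0.14), NEDD4L from 39.1 ± 2.53 to 63.8 ± 2.33 CPM (log2 0.71 ± 0.090), and WWP2 fell from 24.0 ± 3.02 to 11.8 ± 0.460 CPM (log2 −1.02 ± 0.093; SD, n = 4 each). None of the 9 was called with AII or EGF alone or at 24 h. Of the other arrestin-fold genes, which include ARRB1 and ARRB2 of the beta-arrestins and the VPS26 genes of retromer, 7 of 9 were tested (not SAG and ARRDC5) and none was called against control with any stimulus at either time.

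**Figure D5:**
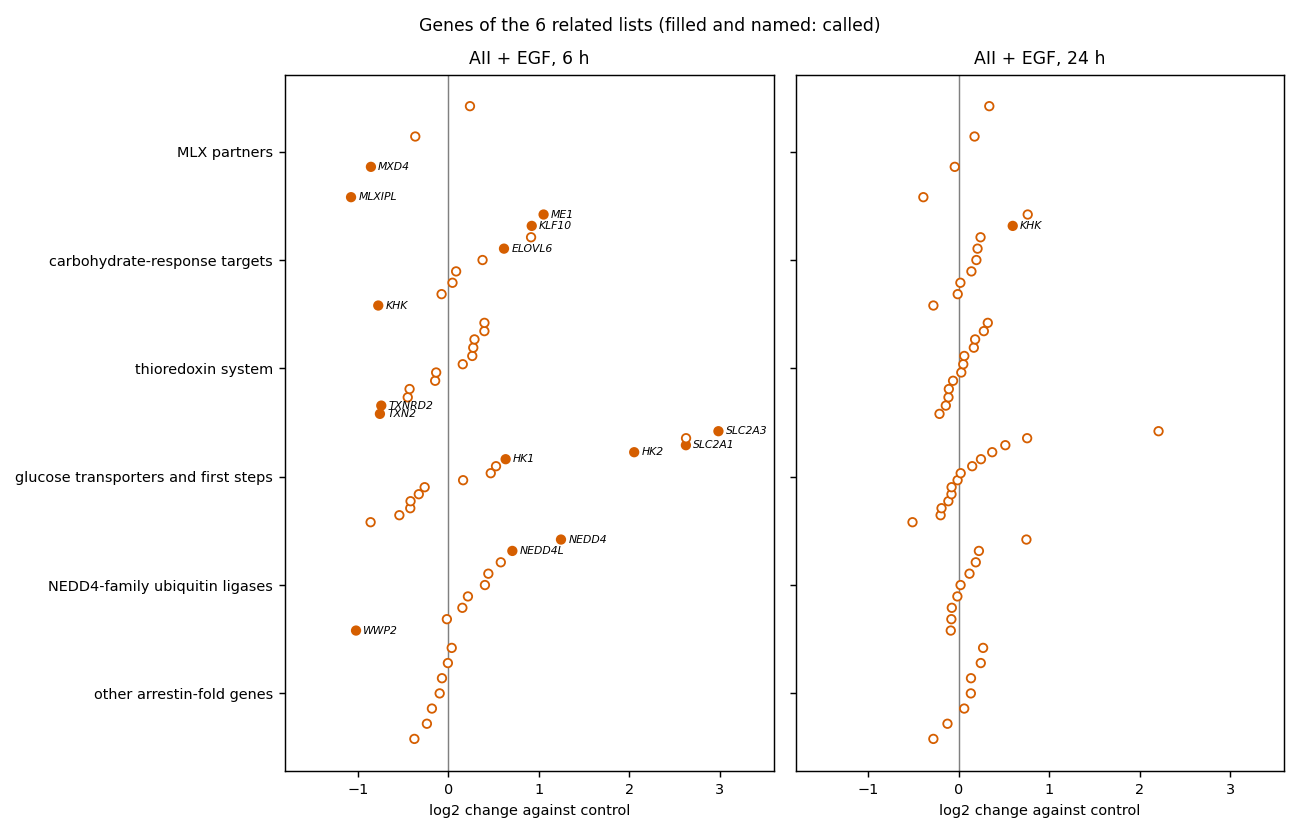
Log2 change against control of the tested genes of 6 lists with AII + EGF at 6 h and 24 h, each point 1 gene, filled and named where called. Among called genes at 6 h SLC2A3 at 2.99 and SLC2A1 at 2.63 are farthest up and MLXIPL at −1.08 is farthest down, and at 24 h KHK at 0.60 is the 1 called gene.

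The genes whose log2 CPM followed TXNIP most closely over the 38 libraries, among 11763 genes above 5 CPM, were TMBIM1 (Spearman 0.975), UBE2H (0.969), TEF (0.959), SYNPO (0.957) and PLD1 (0.956). The genes most opposed to it were SRSF1 (−0.956), ZDHHC14 (−0.954) and UTP3 (−0.954). Among the other 6 genes of the set the values were 0.575 for ARRDC4 (place 2082 of 11763), −0.134 for ARRDC1, −0.283 for MLX, −0.332 for ARRDC3, −0.637 for ARRDC2 and −0.738 for MLXIP. With each group's mean removed, CXorf38 (0.935), P4HA1 (0.914), STOM (0.891), CCDC80 (0.885) and F11R (0.860) were closest, and ZNF782 (−0.820), ZNF251 (−0.777) and SLC7A11 (−0.762) most opposed. These are descriptions over libraries that share groups, title runs and depth, with no test.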

How the data were processed

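Paired-end reads of poly(A) RNA were mapped by the authors with HISAT2 2.1.0 to hg38 and counted per Ensembl gene with featureCounts. The deposited counts are raw, with no normalisation; strand and multi-mapping settings are not given in the sources used here. Groups came from the labels. The 7 genes, the gene lists and the promoter patterns were chosen with earlier results of these data known. Counts of the 38 libraries were filtered (filterByExpr by group), scaled with TMM factors and fitted in 1 quasi-likelihood model (edgeR 4.0.16, R 4.3.3), with Benjamini-Hochberg adjustment over 19626 genes; 16 comparisons were made. For differences between changes, the abundance limit used the highest of the 4 group means. CPM uses TMM-scaled library sizes and SD is over libraries. The named genes were the 7, each called list gene against control (at most 3 higher and 3 lower by size per list; HK1 exceeds that limit and was named after its value was seen), and the 5 closest and 3 most opposed to TXNIP. Per-kilobase levels used the MANE Select transcript, for MLXIP the APPRIS principal one. The steps were tested on simulated data for AII + EGF against control at 6 h. There edgeR recovered 200 of 200 changed genes with 4 false calls among 19626. The simulated counts had the same spread for every gene and no title-run effect. They check the steps and do not measure power in these libraries. Alternatives were DESeq2 1.42.0, other filters, factors, thresholds and sets of libraries, title runs as a block and leaving out each library.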

Additional observations from a re-analysis of the deposited data

Results flagged for a closer look

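In 5 of the 49 groups of 4 to 6 libraries examined, 1 library lay far from the others by Dixon's test at its 95% limit, a limit that chance passes in about 1 group of 20. TXNIP in control 24 h replicate 6 was at 75.7 CPM beside a median of 186 CPM in the other libraries of the group. ARRDC4 in EGF 24 h replicate 6 was at 63.0 CPM beside 184 CPM, and in AII + EGF 24 h replicate 6 at 96.2 CPM beside 224 CPM. These 3 libraries belong to title run 8, whose 4 libraries were low for TXNIP and ARRDC4 in each treatment, and the cause was not tested. MLX was high in control 24 h replicate 3 (50.8 CPM beside 33.2 CPM) and in AII 24 h replicate 3 (41.03 CPM beside 31.4 CPM), both of title run 3. A difference between times was called for ARRDC3. Its AII + EGF change was 0.75 at 6 h and −0.37 at 24 h (the latter not called), a log2 difference of −1.12 ± 0.17 (edgeR adjusted p = 2.26e-06).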

How the results depend on the processing

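Of 785 log2 changes computed under an alternative, 739 kept direction and call (or, where untested, moved by less than 1 SD between libraries of a group). A call was lost in 14 and gained in 17, 13 untested values of TXNIP moved, and 2 tested values, neither called, turned sign. The 785 covered TXNIP and ARRDC4 in most comparisons, called changes and a few others, and many were fits that left out 1 library. Outside those fits 326 were the same, 11 lost a call, 15 gained one, 13 moved and 2 turned sign. These 2 were ARRDC4 with AII at 6 h (−0.016 with only the 2 doubtful libraries left out) and its AII + EGF change at 24 h minus 6 h (0.16 with all 48 libraries). Of the 13 moved values of TXNIP, 3 also turned sign, namely AII at 6 h (−0.64 with all 48 libraries, −0.46 with only the doubtful ones left out) and the interaction at 6 h (0.33 with all 48). The number of the genes called with EGF at 6 h went from 0 to 1 at an adjusted p under 0.05, with title runs as a block, without title runs 7 and 8 and with only the compared groups in the fit. Against EGF at 6 h, AII + EGF called 1 gene, 2 with the block, without runs 7 and 8 or with only the compared groups, and 0 with only the pairs left out. Against AII at 6 h it called 3, and 0 with all 48 libraries. The interaction at 6 h called 0, and 1 at an adjusted p under 0.05 or with DESeq2. At 24 h EGF called 0, and 2 with the block or without runs 7 and 8. AII + EGF at 24 h called 2, and 1 with all 48 libraries, with only the pairs or only the doubtful libraries left out, or with only the compared groups, and 3 without a fold minimum. Against AII at 24 h it called 0, 1 at an adjusted p under 0.05, with DESeq2, without a filter, with the block or without runs 7 and 8, and 2 without a fold minimum. In control, 24 h against 6 h, 1 was called, 2 without a fold minimum, and 0 with all 48 libraries or only the doubtful ones left out. Leaving out 1 library gave 0 to 1 with EGF at 24 h (1 without EGF replicate 6), 1 to 2 with AII + EGF at 24 h (1 without AII + EGF replicate 1 or 3 or control replicate 6) and 0 to 1 against AII at 24 h (1 without AII + EGF replicate 6), and no other of these fits moved a count. With library totals in place of TMM factors the median log2 change of all genes for AII + EGF against AII at 6 h was −0.10, and −0.02 with TMM. With all 48 libraries, called list genes at 6 h were 0 in place of 2 (glucose, AII), 1 in place of 2 (carbohydrate, EGF), 2 in place of 4 (carbohydrate, AII + EGF) and 1 in place of 2 (thioredoxin, AII + EGF). No paired analysis was possible because the labels give no replicate numbers that pair samples. Title runs, read from the order of titles, served as a block instead; this block could not be fitted for control at 24 h against 6 h, since each run holds 1 time. ARRDC3 rests on 101 to 256 counts a library, which limits its precision.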
